A study of Homo sapiens with 6 samples.

Results

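The 10 genes described here are the IGF binding proteins IGFBP1 to IGFBP7, the type 1 insulin-like growth factor receptor IGF1R and the insulin receptor substrates IRS1 and IRS2. They were chosen by symbol from the 39396 genes of a deposited count table, with differences between its groups already known, so their own differences are given as descriptions without a test. The study compared cultures labelled as RKO, a colorectal carcinoma line, with wild-type genotype, after olaparib or after the solvent DMSO. Olaparib inhibits the PARP enzymes that sense DNA strand breaks. Each group holds 3 RNA sequencing libraries of total RNA, from cells kept in medium with 10% serum and plated 24 h before treatment. Dose and length of treatment were not stated in the labels used here. Nothing says that the libraries came from separate cultures, so the errors and p-values cover no more than the variation among these 6 libraries, and it may be technical.

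Insulin and the insulin-like growth factors IGF1 and IGF2 bind receptor tyrosine kinases, chiefly INSR and IGF1R. The activated receptor phosphorylates IRS proteins, which recruit PI3-kinase and thereby switch on the kinase AKT. AKT in turn keeps FOXO transcription factors out of the nucleus, and IGFBP1 and IRS2 are textbook genes that FOXO factors switch on when insulin is low. IGFBP1 to IGFBP6 are secreted proteins that hold IGFs with high affinity and so control how much reaches the receptor. IGFBP7 belongs to the same family by its first domain but binds IGFs weakly. Colorectal tumours are known for frequent overexpression of IGF2.

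Library totals ran from 28715138 to 42423785 counts. Levels are given as CPM, the counts of a gene relative to the scaled size of its library. Across genes, which are not independent replicates, log CPM correlated at r = 0.984 to 0.992 within groups and at 0.751 to 0.762 between them. Among 13 colon epithelium markers, CDX1 had no count in any library. CDX2, an intestinal transcription factor, had none in olaparib and stood at 26.5, 24.4 and 22.5 CPM in DMSO. The keratins of simple epithelia went the other way, KRT8 at 581 ± 90.2 against 175 ± 23.3 CPM (SD, n = 3) and KRT18 at 400.4 ± 64.5 against 75.3 ± 10.6 CPM, as did the adhesion protein EPCAM at 4.67 ± 1.66 against 0.999 ± 0.129 CPM. The 13 markers summed to 817 to 1098 CPM in olaparib and 276 to 340 CPM in DMSO. All 9 genes of a list known from embryonic kidney cell lines averaged at least 1 CPM in DMSO and 2 of them did in olaparib, with summed levels of 301 to 523 CPM against 22.1 to 25.7 CPM. The part of these markers in the differences below was not tested. A difference in cell source between the groups cannot be told apart from treatment, nor can fewer cells of a type be told apart from less RNA per cell.

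The set of IGF binding proteins differed between the groups almost member by member. IGFBP2 and IGFBP5 were counted in DMSO libraries only and IGFBP1 in olaparib libraries only, while IGFBP4, IGFBP6 and IGFBP7 were 4.73-fold to 12.9-fold higher in olaparib and IGFBP3 1.86-fold higher. For each of the 10 genes the groups did not overlap, 8 being higher and 2 lower in olaparib. Over all 17078 genes tested, the groups did not overlap in 79.4%, with 37.3% higher and 42.0% lower. Because the genes were picked with this contrast in view, nothing is read from that count.

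IGFBP2, a binding protein abundant in fetal tissue and in many tumours, stood at 105, 104 and 72.5 CPM in DMSO replicates 1 to 3 and had no count in any olaparib library. Taking 3 counts over the 3 olaparib libraries as a floor, its level was at least 2688-fold lower in olaparib. Without olaparib replicate 2 it was at least 1748-fold lower, because fewer libraries then set the floor. This floor and those below are too low, and the bounds too high, if read mates were counted separately. IGFBP5, which is stored in the extracellular matrix, was at 20.9, 7.72 and 7.96 CPM in DMSO and also without a count in olaparib. DMSO replicate 1 was well above the other DMSO libraries for this gene. The bound for IGFBP5 was at least 368-fold lower, but at least 229-fold without DMSO replicate 1 and 239-fold without olaparib replicate 2.

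IGFBP1, a binding protein made mainly by liver and by the lining of the pregnant uterus and known for its rapid control by insulin, went the opposite way. It was at 30.9, 17.1 and 19.4 CPM in olaparib replicates 1 to 3 and had no count in DMSO, which makes it at least 866-fold higher. Leaving out DMSO replicate 1 or 3 lowered that bound to at least 552-fold or 536-fold, again through the floor. Of 5 hepatocyte markers, none averaged 1 CPM in either group, and their summed level was at most 0.131 CPM in olaparib.

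**Figure D1:**
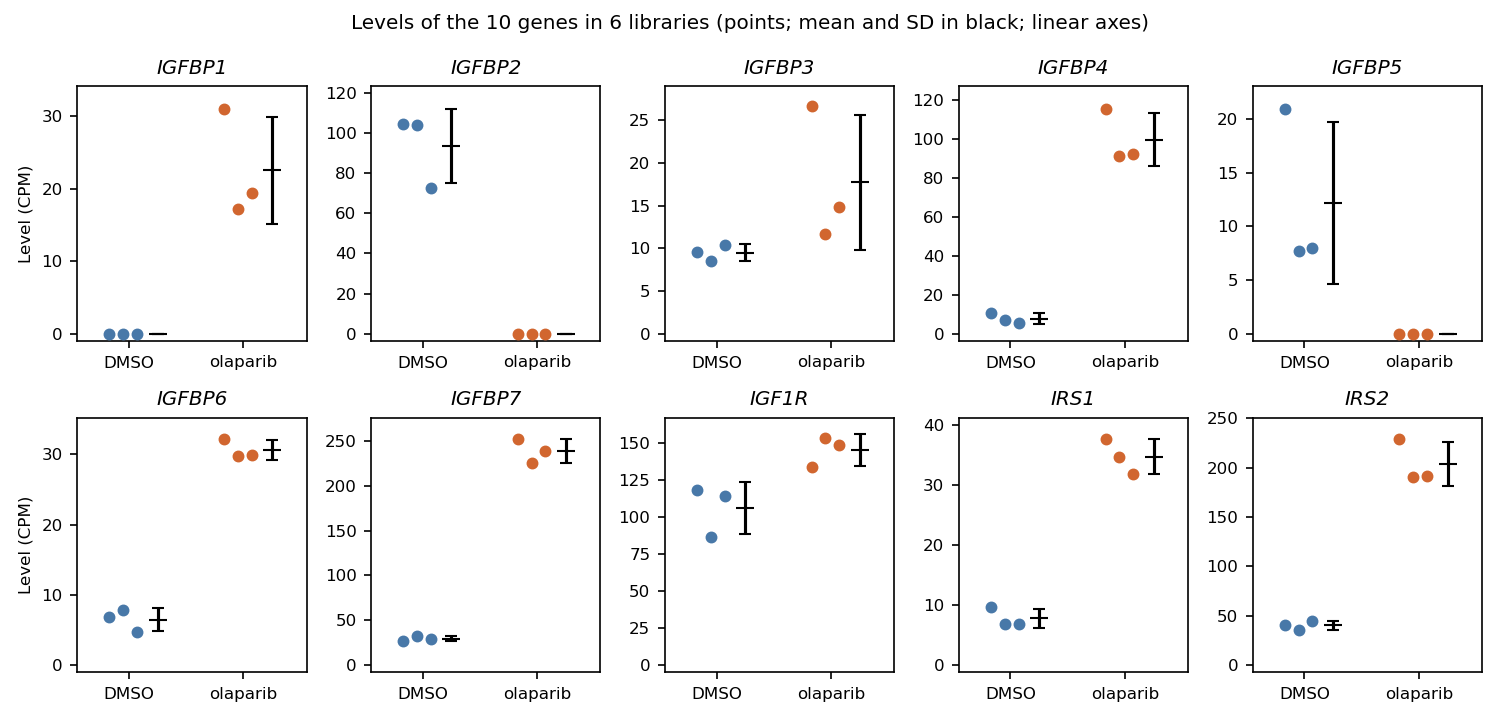
Level in CPM (linear axes) of each of the 10 genes in the 3 DMSO libraries (blue points) and the 3 olaparib libraries (orange points), with the mean and SD of each group in black. IGFBP2 and IGFBP5 sit at 0 in all olaparib libraries and IGFBP1 at 0 in all DMSO libraries, and IGF1R and IGFBP3 show the smallest fold differences.

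IGFBP7, the weak IGF binder also found around blood vessels, was the most abundant binding protein per kilobase of transcript in olaparib. It stood at 251, 226 and 238 CPM against 27.3, 32.9 and 29.4 CPM in DMSO. Its log2 fold change was 2.999 ± 0.111 (SE), a 7.99-fold difference. Of 5 endothelial markers, 3 averaged at least 1 CPM in olaparib and 1 in DMSO, with summed levels of 44.8 to 48.4 against 5.38 to 6.54 CPM. Among them the adhesion genes CDH5 (20.5 ± 0.106 against 0.128 ± 0.182 CPM) and ESAM (23.2 ± 2.65 against 4.59 ± 0.647 CPM) were higher in olaparib, as was PECAM1 at 2.51 ± 0.973 against 0.409 ± 0.222 CPM. KDR, the receptor for vascular growth factor, was lower, at 0.0472 ± 0.0817 against 0.676 ± 0.197 CPM, and VWF stood at 0.419 and 0.259 CPM. The part of these markers in the IGFBP7 difference was not tested. IGFBP7 and its neighbour POLR2B overlap by 396 bases on opposite strands, and POLR2B was 1.54-fold higher (edgeR's quasi-likelihood test, adjusted p = 0.00104).

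IGFBP4, which inhibits IGF action until the protease PAPPA cleaves it, stood at 116, 91.4 and 92.1 CPM in olaparib and at 10.8, 6.94 and 5.31 CPM in DMSO. The lowest olaparib library was thus far above the highest DMSO library, with a log2 fold change of 3.69 ± 0.22 (SE). IGFBP6, which prefers IGF2 over IGF1, was at 32.2, 29.7 and 29.9 CPM in olaparib against 6.81, 7.92 and 4.75 CPM in DMSO. Its log2 fold change was 2.24 ± 0.18 (SE).

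IGFBP3, the main IGF carrier of blood plasma, differed least among the binding proteins. It was at 26.7, 11.7 and 14.8 CPM in olaparib and at 9.57, 8.46 and 10.4 CPM in DMSO. The lowest olaparib library lay just above the highest DMSO library. The log2 fold change of 0.90 ± 0.26 (SE) fell to 0.48 without olaparib replicate 1. That library was the highest of its group for 7 of the 8 members with counts in olaparib.

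Levels of different genes were compared per kilobase of their longest principal transcript. On that scale the binding proteins summed to 260 ± 23.9 CPM per kb in olaparib and 101 ± 15.4 in DMSO (SD, n = 3). IGFBP2 made up 64.0 ± 3.07% of the family in DMSO, ahead of IGFBP7 at 21.0 ± 3.68% and IGFBP6 at 5.44 ± 0.655%. In olaparib IGFBP7 took 64.4 ± 2.59%, followed by IGFBP4 at 17.4 ± 0.888%, IGFBP6 at 10.1 ± 0.486%, IGFBP1 at 5.16 ± 1.20% and IGFBP3 at 2.95 ± 1.03%. In DMSO the share of IGFBP6 was above that of IGFBP4 (3.41 ± 0.921%) in each library. IGFBP3 (4.26 ± 1.124%) changed order with both of them from library to library. The merged exons of all annotated transcripts, an alternative length, left the leading gene of each group the same by mean share. They lowered the mean IGFBP2 share in DMSO to 41.2%, against 33.1% for IGFBP7. In DMSO replicate 3 IGFBP7 was then just ahead, at 38.193% against 38.105% for IGFBP2. On this length IGFBP6 was above IGFBP3 in every DMSO library, with means of 10.1% and 4.47%.

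**Figure D2:**
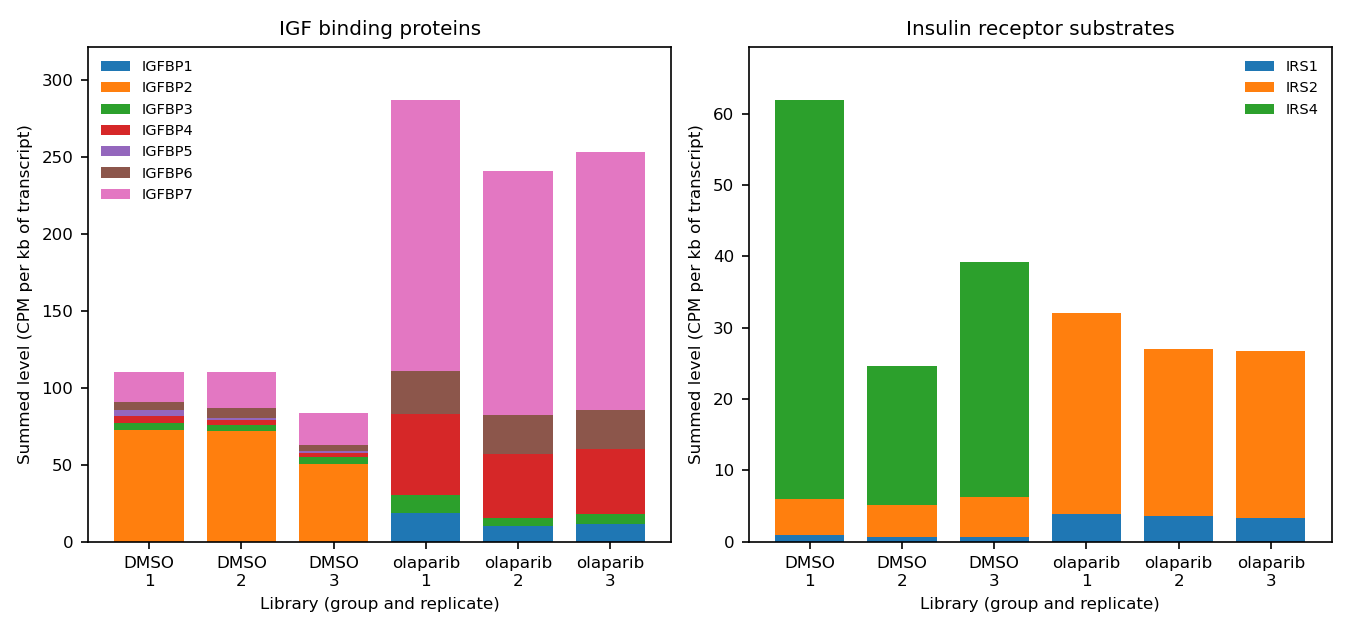
Stacked levels (CPM per kb of the longest principal transcript) of the 7 IGF binding proteins (left) and of IRS1, IRS2 and IRS4 (right) in each library, DMSO replicates first. IGFBP2 fills most of each DMSO bar and IGFBP7 most of each olaparib bar, while IRS4 fills most of each DMSO bar and IRS2 most of each olaparib bar on the right.

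Of the binding protein genes, 4 form neighbouring couples in the genome (hg38, GENCODE release 29). IGFBP1 (chromosome 7, 45888357 to 45893668) and IGFBP3 (45912245 to 45921874) point towards each other with 18.6 kb between them. IGFBP2 (chromosome 2, 216632828 to 216664436) and IGFBP5 (216672105 to 216695525) also point towards each other, 7.67 kb apart. Within the chromosome 7 couple only IGFBP1 was without counts in a group, whereas on chromosome 2 both genes were without counts in olaparib. Around the chromosome 2 couple, the ribosomal protein gene RPL37A on one side kept 294 ± 9.49 CPM in olaparib against 861 ± 111 CPM in DMSO, and the sperm protein gene TNP1 on the other had no count in any library. RPL37A was 2.93-fold lower (edgeR adjusted p = 2.59e-07) while IGFBP2, 53.6 kb away, was undetected.

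Neighbours of the other binding proteins were mixed. TNS4, which encodes an adhesion adaptor 18.1 kb from IGFBP4, was 11.98-fold higher in olaparib (log2 3.58 ± 0.22, SE, edgeR adjusted p = 2.61e-08), beside 12.9-fold for IGFBP4. TOP2A, the topoisomerase gene on the opposite side of IGFBP4, differed by a log2 fold change of 0.19 ± 0.18 (edgeR adjusted p = 0.343). Of the alternatives run, it passed without olaparib replicate 1 (TOP2A 0.38, edgeR adjusted p = 0.0457). Next to IGFBP6, SPRYD3 was 1.69-fold higher and SOAT2, 1.17 kb away, held 3 counts in olaparib and 4 in DMSO. Beyond IGFBP3, TNS3 was 5.93-fold higher at a distance of 1353 kb, and CCDC201 before IGFBP1 had no count in any library. ADGRL3, the next gene after IGFBP7 at 4091 kb, was lower (log2 -6.67 ± 0.57, SE), with all its olaparib counts in replicate 2 and a log2 fold change of -11.69 without that library.

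Bases upstream of the start of IGFBP2 and IGFBP5 are printed because both genes were undetected in olaparib, with every CpG dinucleotide, the site of DNA methylation, in capitals. Sequences are from RefSeq (GRCh38.p14), read 5′ to 3′ on the gene's strand. The IGFBP2 stretch is chr2:216633170-216633389, plus strand, and stops 30 bases before the start. The IGFBP5 stretch is chr2:216695550-216695799, minus strand.
IGFBP2: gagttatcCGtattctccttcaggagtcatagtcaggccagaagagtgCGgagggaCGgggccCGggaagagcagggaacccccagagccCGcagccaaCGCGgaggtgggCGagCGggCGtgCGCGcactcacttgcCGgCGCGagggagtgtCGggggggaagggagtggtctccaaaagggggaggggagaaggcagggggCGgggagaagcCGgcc
IGFBP5: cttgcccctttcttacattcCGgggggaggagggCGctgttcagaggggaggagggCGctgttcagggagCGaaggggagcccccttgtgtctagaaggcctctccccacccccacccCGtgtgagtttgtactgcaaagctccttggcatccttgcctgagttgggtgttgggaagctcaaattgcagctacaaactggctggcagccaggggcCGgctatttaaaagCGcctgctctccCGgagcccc

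Of the 10 members, 8 matched an entry of the promoter table, and IGFBP1 and IGFBP7 did not. In the 250 bases before the start, IGFBP2 held 22 CpG at its principal start and IGFBP5 held 8, where the median of 35116 windows is 11 and the quartiles are 3 and 23. The windows of 2 other annotated IGFBP2 starts held 7 and 4. IGFBP3 held 32 CpG, IGFBP4 24 and IGFBP6 9. The signalling genes were richer, with 48 in IGF1R, 42 in IRS2 and 39 in IRS1. The starts used for IGFBP6 and IRS1 lay 222 and 61 bases from their principal starts. DNA methylation itself was not measured.

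Signalling genes of the set differed as well, the substrates more than the receptor. IRS2, the substrate central to insulin action in liver and beta cells, was 5.01-fold higher in olaparib, and IRS1, the main substrate in muscle and fat, 4.44-fold. IGF1R was 1.37-fold higher. IRS2 stood at 229, 190 and 191 CPM in olaparib against 40.6, 36.0 and 45.3 CPM in DMSO, a log2 fold change of 2.32 ± 0.12 (SE). IRS1 stood at 37.6, 34.6 and 31.8 CPM against 9.64, 6.91 and 6.83 CPM, a log2 fold change of 2.15 ± 0.16 (SE). The olaparib and DMSO libraries were widely separated for both. IGF1R stood at 133, 153 and 148 CPM in olaparib against 118, 86.1 and 114 CPM in DMSO, with a log2 fold change of 0.45 ± 0.13 (SE). Here DMSO replicate 1 came close to olaparib replicate 1.

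IRS4, a substrate first found in embryonic kidney cells and not one of the 10 genes, had the opposite pattern. It was at 220, 76.5 and 130 CPM in DMSO and held 4 counts over the olaparib libraries, none of them in replicate 2. The count ratio was 3255 (95% exact counting interval 1271 to 11948), and edgeR's quasi-likelihood test gave adjusted p = 6.57e-07. The interval covers counting error only. IRS4 is also on the list of embryonic kidney markers whose level moved with the groups. Its own level is part of the sums given for that list, 220 of the 523 CPM in DMSO replicate 1.

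Per kilobase, IRS4 made up 84.5 ± 5.61% of the 3 IRS genes in DMSO and IRS2 87.4 ± 0.580% in olaparib. IRS1 remained the smaller of IRS1 and IRS2 in both groups, at 2.10 ± 0.697% in DMSO and 12.5 ± 0.614% in olaparib. The sum of the 3 genes was 28.6 ± 2.99 CPM per kb in olaparib and 41.9 ± 18.8 in DMSO. These sums overlapped between groups, since DMSO replicate 2 lay at 24.6 and the olaparib libraries between 26.8 and 32.0.

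The motif TGTTTTG is the core of the insulin response element that FOXO factors bind. It was sought on both strands (as TGTTTTG or CAAAACA) in the 250 bases before each start, together with the variant TATTTTG (or CAAAATA), and these forms cannot match the same 7 bases, although the ends of some can overlap. TGTTTTG was present in 4.30% of all windows and TATTTTG in 3.94%. Among the 8 members with a window only IRS2 held TGTTTTG, 40 bases before its start, and none held TATTTTG. IRS4 held TGTTTTG 131 bases before 1 of its 2 annotated starts. The stretches are printed with the motif in capitals, for IRS2 from chr13:109786606-109786635 and for IRS4 from chrX:108736491-108736520, both on the minus strand.
IRS2: cgagtcacatgtTGTTTTGctcttcttagt
IRS4: gtggtcacgtgtTGTTTTGcccgctgtcgt
The 11 bases TGTTGTTTTGC, which both hold, were chosen after the sequences were seen and occur in 8 of the 35116 windows on either strand. Of the substrates with the motif, IRS2 was higher and IRS4 lower in olaparib.

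Ligands were nearly absent from these cultures. INS, the insulin gene, had no count in any library, and IGF1 held 3 counts in olaparib and none in DMSO. IGF2 stood at 2.61, 0.472 and 0.972 CPM in DMSO and had no count in olaparib, at least 42.0-fold lower (edgeR adjusted p = 0.000217). The bound was at least 22.5-fold without DMSO replicate 1, the highest library, and at least 27.3-fold without olaparib replicate 2. Reads of the readthrough gene INS-IGF2 may be counted with IGF2, so this value is uncertain. The serum in the medium is another source of IGFs, which RNA sequencing does not see.

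The other receptors were all higher in olaparib by edgeR's test, 3 of 3, where 35.4% of all 17078 tested genes were called higher and 75.7% in either direction. The insulin receptor INSR was 1.35-fold higher, at 67.2, 71.0 and 70.1 CPM against 44.4, 50.4 and 59.7 CPM (adjusted p = 0.0051). IGF2R, which clears IGF2 from the cell surface without signalling through a kinase, was 1.75-fold higher, at 516.5 ± 24.8 against 294.5 ± 52.7 CPM (SD, n = 3, edgeR adjusted p = 0.000152). INSRR, an orphan receptor of the family, was 6.60-fold higher at a low level, 2.41 ± 1.41 against 0.353 ± 0.131 CPM, and 2.13 rather than 2.72 on the log2 scale without olaparib replicate 1. IGF2R had the highest level per kilobase of the 4 receptors in both groups, with 57.6 ± 0.559% of their sum in olaparib and 51.4 ± 2.37% in DMSO. IGF1R and INSR changed places with the choice of transcript length, so their order cannot be given.

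Over the wider pathway, genes were called in both directions. Of 97 pathway genes outside the 10, 91 were tested, and edgeR's quasi-likelihood test called 39 higher and 37 lower in olaparib at an adjusted p of 0.05. Over all tested genes the shares were 35.4% and 40.3%. The median log2 fold change was 0.0088 over the pathway genes and -0.09 over all genes, and the median absolute values were 0.96 and 0.94.

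Among 8 carriers, proteases and relatives of the binding proteins, 7 were tested, with 6 higher and 1 lower and a median of 1.07. Over all tested genes 35.4% were called higher and 40.3% lower. The gene called lower was STC1, a paralog of STC2, 10.4-fold lower at 0.185 ± 0.265 against 1.93 ± 0.796 CPM (edgeR adjusted p = 0.00105). ADAM12, a protease that cleaves IGFBP3 and IGFBP5, was 291-fold higher, at 50.75 ± 3.23 CPM against 0.153 ± 0.159 CPM (edgeR adjusted p = 1.02e-09). Its log2 fold change of 8.18 became 9.17 without DMSO replicate 3, which held most of its DMSO counts. PAPPA2, which cleaves IGFBP3 and IGFBP5 as well, was 5.31-fold higher, the serine protease HTRA1 2.11-fold and STC2, an inhibitor of the PAPPA proteases, 2.05-fold. IGFBP5 itself was undetected in the olaparib libraries in which these were higher.

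Of 20 adaptors and brakes between receptor and PI3-kinase, 9 were higher, 8 lower and 3 not called, with a median of 0.14. SHC1, which links receptors to the RAS pathway, was 3.62-fold higher, at 221 ± 14.2 against 61.1 ± 1.08 CPM, and its paralog SHC2 6.59-fold lower. The adaptor GRB7 was 18.04-fold higher, from 1.25 ± 0.513 CPM in DMSO. SOCS3, a feedback inhibitor that also promotes loss of IRS proteins, was 6.64-fold higher, at 59.9 ± 13.9 against 9.06 ± 1.93 CPM (edgeR adjusted p = 7.47e-08). Its paralog SOCS1 went the other way, 6.12-fold lower at 0.463 ± 0.252 against 2.85 ± 0.923 CPM (edgeR adjusted p = 0.000155).

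Of 16 genes of PI3-kinase, its opposing phosphatases and AKT, 6 were higher, 6 lower and 4 not called. PIK3R1, the regulatory subunit p85-alpha, 1 of those that dock onto IRS proteins, was 15.5-fold lower, at 1.67, 1.37 and 0.920 CPM in olaparib against 24.3, 15.4 and 21.9 CPM in DMSO (edgeR adjusted p = 3.94e-08). The catalytic subunit PIK3CA was 2.36-fold higher. INPP4B, a phosphatase of PI3-kinase products, was 8.55-fold higher, with a log2 fold change of 3.10 that became 3.78 without DMSO replicate 1. The other docking subunits did not share this direction. PIK3R2 was 3.54-fold higher at a low level, 0.759 ± 0.222 against 0.208 ± 0.160 CPM (edgeR adjusted p = 0.0115). PIK3R3 was not called, at 38.1 ± 1.82 against 32.3 ± 4.96 CPM (edgeR adjusted p = 0.102).

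Of 17 genes of the mTOR and GSK3 arm, 3 were higher, 9 lower and 5 not called, with a median of -0.31. RICTOR, the defining subunit of the mTOR complex that phosphorylates AKT, was 8.0-fold higher, at 292 ± 15.3 against 36.4 ± 6.99 CPM, and TSC1, which restrains mTOR, 2.51-fold higher. GSK3A was 3.39-fold and the translation repressor EIF4EBP1 2.41-fold lower.

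**Figure D3:**
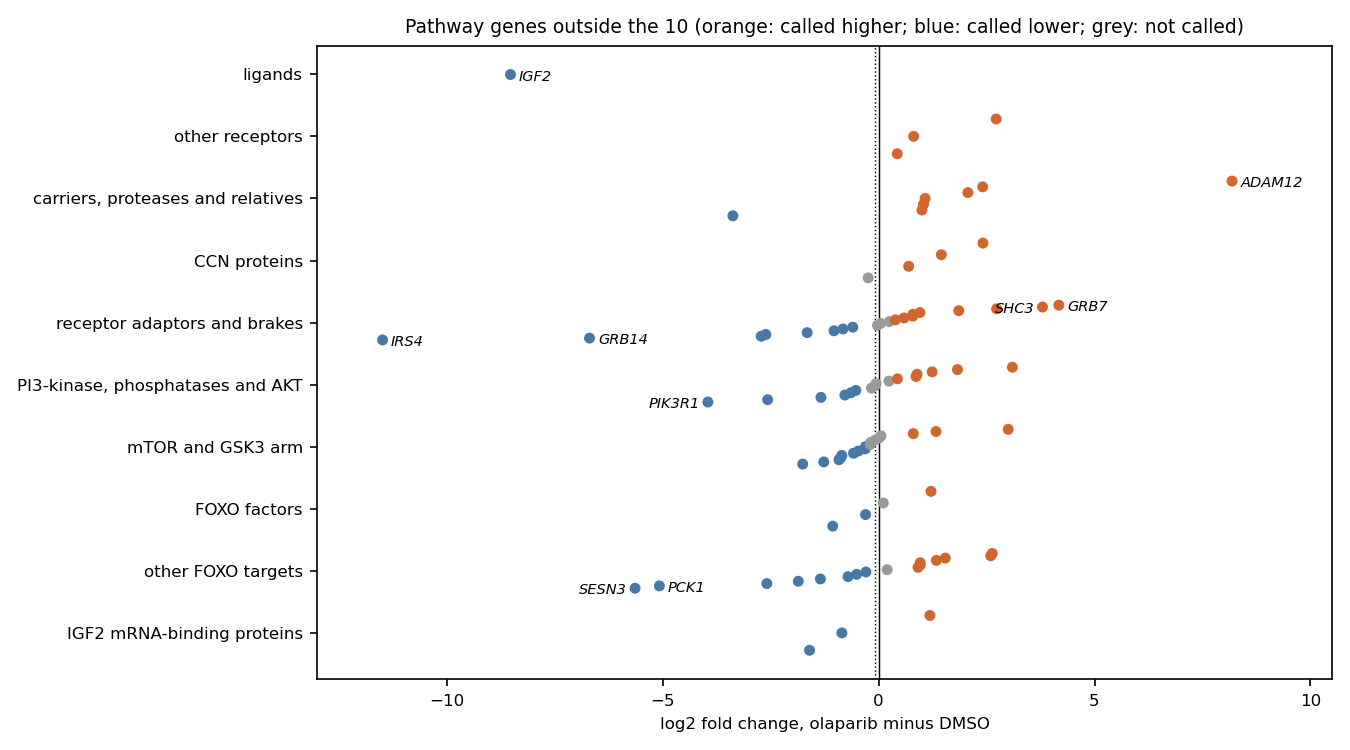
Log2 fold change (olaparib minus DMSO) of each tested pathway gene outside the 10, by list, coloured by edgeR's call, with the median over all tested genes as a dotted line. Most lists hold called genes on both sides of 0, with IRS4 farthest to the lower side and ADAM12 farthest to the higher. The fitted value of IGF2, which has no olaparib count, depends on the fit and is no bound.

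Of the 4 FOXO factors, FOXO1 was 2.32-fold higher in olaparib, at 49.4, 34.3 and 39.8 CPM against 19.9, 16.2 and 17.0 CPM (edgeR adjusted p = 1.08e-05). FOXO6 was 2.09-fold lower, and FOXO4 was not called (log2 0.11 ± 0.17, SE). FOXO3 was 1.23-fold lower (edgeR adjusted p = 0.0326) with overlapping groups, a call that was lost without olaparib replicate 1, 2 or 3 or DMSO replicate 3 (adjusted p = 0.12, 0.0819, 0.0535 and 0.115). FOXO factors are controlled largely by phosphorylation and location, which RNA levels do not show.

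IGFBP1 and IRS2 are FOXO targets, and 17 other genes known as such were counted beside them. Of 16 tested, 7 were higher, 8 lower and 1 not called, with a median of -0.05 beside -0.09 over all genes. CITED2, a transcriptional coregulator, was 6.20-fold higher, at 257 ± 9.16 against 41.5 ± 4.46 CPM, and the receptor ERBB3 6.05-fold higher. SESN3 and SESN1, stress-induced sestrins, were 49.9-fold and 2.55-fold lower (edgeR adjusted p = 5.16e-09 and 2.53e-06). The other FOXO targets were thus called in both directions, where IGFBP1 and IRS2 were both higher.

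The genes most like IGFBP1 and IGFBP2 were found by the Euclidean distance of log2 (CPM + 0.5) over the 6 libraries, among 14452 other tested protein-coding genes. For IGFBP1 they were KCNJ18 (distance 0.358), MARCOL (0.514), SLITRK4 (0.529) and CASP1 (0.598). KCNJ18, a potassium channel gene with near-identical copies whose reads may be misplaced, shared the high value of olaparib replicate 1, at 36.6, 19.8 and 17.9 CPM. SLITRK4 had no DMSO count, and all DMSO counts of KCNJ18 were in replicate 1 and those of MARCOL and CASP1 in replicate 2. For IGFBP2 they were BEX4 (0.389), PCSK1N (0.451), SLAIN1 (0.472) and QPRT (0.476). BEX4 and PCSK1N had no olaparib count, all olaparib counts of SLAIN1 were in replicate 2, and QPRT averaged 0.0668 CPM in olaparib and 98.4 ± 9.45 CPM in DMSO.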

How the data were processed

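Per the submitters' processing notes, the tools included fastp and STAR, and the build was hg38. What the authors deposited is 1 table of raw counts per gene symbol, with a column for each of 6 libraries. The counting program, its strand setting, the annotation and the versions were not stated in the labels used here. More genes held 2 counts than held 1 in each library, so read mates may have been counted separately. In that case the counting intervals are too narrow, the floors too low and the bounds built on these floors too high. Intervals and floors reflect counting error alone.

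Sample titles, which the column names repeat, gave the groups and replicate numbers. The test was that of edgeR 4.0.16, under R 4.3.3 (filterByExpr, TMM, robust quasi-likelihood fit on group). It was also run on simulated data with far fewer changed genes than were called here. That run does not give its error rate for this contrast. Benjamini-Hochberg adjustment ran over 17078 genes, with calls at 0.05. Standard errors were derived from the F statistic, and CPM from TMM-scaled library sizes. A group without a count was set to a floor of 3 counts over its 3 libraries, and for IRS4 a count ratio with an exact 95% interval is given.

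The members and lists were chosen with earlier results of these data known. Named genes were the 10 members, all ligands, other receptors, FOXO factors and IGF2 mRNA-binding proteins, IRS4, up to 4 genes with the smallest adjusted p of each other list, the nearest protein-coding gene on each side of each IGFBP gene, and the 4 genes nearest in level to IGFBP1 and to IGFBP2. 1 gene of this rule is not reported here. Marker genes, PIK3R2, PIK3R3, SOCS1 and STC1 were named after their values were seen. Positions and lengths came from GENCODE release 29, matched by symbol for 99.7% of the table. Protein sequences were not analysed here. Alternatives were DESeq2 1.42.0, limma-voom (limma 3.58.1), RLE factors, library size alone, 2 other filters, the replicate block, halved counts, the loss of each library and, chosen after seeing the data, merged exon length.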

Additional observations from a re-analysis of the deposited data

How the results depend on the processing

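All 10 members kept their direction under every alternative run, and 7 of them moved by less than the spread between replicates. The others, IGFBP1, IGFBP2 and IGFBP5, have a group without counts. Their fitted log2 fold changes thus depend on the tool (IGFBP2 from -14.70 to -12.39), and the bounds are given in their place. Those bounds are too high if read mates were counted separately. Of 51 other named genes, 47 kept their call and direction under each alternative that tested them. IGF2 is among these, but 2 alternatives did not test it. The sign of FOXO4, which was not called, turned without DMSO replicate 2 (-0.066, in a range of -0.066 to 0.2625 over the libraries left out). CCN5 passed with library size alone, which made 1 CCN gene lower where otherwise none was, and without DMSO replicate 1, for a range of 0 to 1 over the libraries left out. FOXO factors called lower ranged from 1 to 2 over the libraries left out, through FOXO3. The 1 ligand called lower, IGF2, became 0 with the filter of at least 1 CPM in 3 libraries and with halved counts, since it passed the expression filter in neither. With merged exon lengths the family shares were 41.2% for IGFBP2 and 33.1% for IGFBP7 in DMSO, and 59.2% for IGFBP7 and 21.6% for IGFBP4 in olaparib. Same-numbered libraries did not deviate together (correlations -0.090, -0.042 and -0.0017), so no shared variation by number was visible. Whether the numbers pair the libraries is not stated in the labels used here. With the replicate block 5797 genes were higher and 6629 lower, against 6045 and 6882, and 38 and 34 pathway genes against 39 and 37. The depth limits genes near the floor of 3 counts per group, as for IGF1 and INS.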

Other observations

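Genes that carry the IGF or IGFBP name by another route were also counted. CCN proteins are matrix proteins that share the first domain of the IGF binding proteins. Of 6 CCN genes 4 were tested, and 3 were higher in olaparib by edgeR's test, beside 35.4% of all tested genes called higher and 75.7% called in either direction. CCN1 was 5.34-fold higher, at 147, 281 and 273 CPM against 32.3, 51.5 and 47.5 CPM, CCN2 2.73-fold and CCN3 1.62-fold higher, and CCN5 was not called (log2 -0.24 ± 0.13, SE). Unlike 7 of the 8 members with counts in olaparib, CCN1 was lowest there in replicate 1.

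The IGF2 mRNA-binding proteins bind IGF2 transcripts rather than the hormone, and IGF2BP1 and IGF2BP3 are fetal genes re-expressed in tumours. IGF2BP1 was 1.81-fold lower in olaparib, at 155 ± 13.8 against 280 ± 75.4 CPM (SD, n = 3), and IGF2BP2 3.03-fold lower, whereas IGF2BP3 was 2.28-fold higher, at 78.5 ± 8.68 against 34.4 ± 8.13 CPM (edgeR adjusted p = 0.000524, 1.68e-06 and 2.34e-05). All 3 were present in every library, although IGF2 itself had no count in olaparib.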
